A study of Homo sapiens with 12 samples.

Results

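Non-side-population (non-SP) cells of the human lung adenocarcinoma line A549 were compared with and without exposure to an EpCAM antibody. The comparison used 6 of the 12 arrays of the series, chosen by their labels alone: 3 arrays of antibody-treated non-SP cells and 3 of untreated non-SP cells. Treated cultures had received 100 µg/ml of a monoclonal antibody to EpCAM over 48 h. It is described as anti-mouse, without saying whether mouse is its host or its target, and no isotype control is named in the labels, so the reference is culture without antibody. Cells of both groups were then stained over 90 min with 5 µg/ml of the DNA dye Hoechst and separated by flow cytometry. The other 6 arrays hold the side population (SP), 3 treated and 3 untreated. The design text calls the 3 samples of each group biological replicates. Non-SP cells are those that keep the dye, and they stand for the bulk of a culture from which the dye-excluding cells have been removed. A549 is 1 cell line, and the samples hold no other donor or line.

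EpCAM is a membrane glycoprotein of epithelial cells that takes part in cell adhesion and associates with claudins, tetraspanins and CD44. Its extracellular part can be shed by ADAM proteases, after which the gamma-secretase complex (which includes nicastrin, APH1A and PSENEN) can release an intracellular fragment that acts with FHL2, beta-catenin and LEF1 on genes such as MYC and cyclin genes. An antibody against EpCAM on the cell could therefore be examined through EPCAM itself, its partners, its cleavage enzymes and its reported target genes, and more broadly through adhesion, immune and growth pathways. The comparison asks whether transcript levels of dye-retaining cells differed after antibody exposure.

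Values are log2 expression values of Affymetrix probe sets. They were quantile-normalised over the 6 arrays, and each gene was represented by 1 probe set, which gave 14629 genes to test. Array medians before that step ran from 5.70 to 6.15 in untreated and from 5.58 to 6.24 in treated cells. The deposited distributions (mean gap between sorted values) were 0.0481 to 0.524 apart among the 6 non-SP arrays, but 0.0093 to 0.0213 apart between a non-SP array and the SP array that carries its treatment and number. Treated and untreated arrays thus lie in different sets of near-identical distributions. The log2 difference between the 3′ and 5′ control probe sets of ACTB, a measure of RNA integrity and labelling, was 2.86, 2.95 and 1.39 in untreated arrays 1, 2 and 3 and 1.28, 0.94 and 3.13 in treated arrays 1, 2 and 3. High and low values of this ratio occurred in both groups. Its part in the results below was not tested. Epithelial genes were present as labelled, with 18 of 22 listed epithelial identity genes above the intensity filter and array means of 10.00 to 10.24, while ESRP1, GRHL2 and RAB25 did not pass it. Of listed leukocyte markers 7 of 14 passed the filter and PTPRC, MS4A1 and LYZ did not. The mean of the 7 was 6.39 to 6.56 in untreated and 6.36 to 6.52 in treated arrays. Of endothelial markers 2 of 8 passed, and CDH5, VWF and KDR did not. Their mean was 6.45 to 6.70 in untreated and 6.49 to 6.75 in treated arrays. Fibroblast markers passed for 6 of 10 genes, with COL3A1, LUM, PDGFRA and FAP below the filter, and with a mean of 6.69 to 7.11 against 6.74 to 7.28. Of alveolar type II genes, which mark the cell type that A549 is often used to model, 10 of 16 passed and SFTPD, LAMP3 and SLC34A2 did not.

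No gene passed the test for an antibody difference in non-SP cells. With limma and Benjamini-Hochberg adjustment over the 14629 genes, 0 genes had an adjusted p under 0.05 in either direction (0%), and the smallest adjusted p was 1.00. At an unadjusted limma p under 0.05 there were 141 genes with higher values in treated cells (0.964% of genes) and 100 with lower values (0.684%), or 241 in all (1.65%). Without quantile normalisation these counts were 46 and 14. Evenly spread p-values would put a share of 0.05 of all genes under this limit, above the 1.65% found. Leaving out untreated replicate 1, untreated replicate 3 or treated replicate 1 gave 158, 656 or 485 genes at this limit, and 0 genes passed after adjustment in each case. The smallest unadjusted limma p was 0.000355. All 3 treated arrays lay above all 3 untreated arrays for 439 genes (3.00%), and all 3 lay below for 255 genes (1.74%). For 6 exchangeable arrays, such a separation in one direction or the other has a probability of 0.1, above both shares together. Neither the 0.05 nor the 0.1 benchmark allows for replicate number, which values followed in both groups. With replicate number as a block, 832 genes had an unadjusted limma p under 0.05 and 0 passed after adjustment. The low shares are therefore not read as fewer differences than by chance. The median difference over all genes was 0.02 on the log2 scale, with quartiles of -0.06 and 0.12, and the estimates ran from -1.40 to 0.92. The estimate was above zero for 8314 genes (56.8%). A difference of more than 1 (2-fold) was estimated for 9 genes, all of them lower in treated cells.

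The precision of 3 arrays against 3 was enough to bound most genes. The median SE of a difference was 0.16. For 13871 genes (94.8%) the 95% interval lay wholly within 1 log2 unit of zero, so a 2-fold difference in either direction lay outside their intervals. For 69.1% of genes the interval lay within 1.5-fold. For the other genes the interval reached past 1 log2 unit on at least one side. These intervals take no account of replicate number, and can be too wide if same-numbered arrays are pairs. Small p-values were unevenly spread over expression levels: of the 241 genes at an unadjusted limma p under 0.05, 158, 55, 20 and 8 fell into 4 equal groups of genes ordered from dimmest to brightest.

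EPCAM, the antibody's named target, was expressed in all 6 arrays and its groups overlapped. Its values were 8.89, 9.42 and 10.44 in untreated arrays 1, 2 and 3 and 9.26, 10.10 and 10.29 in treated arrays 1, 2 and 3. Replicate 1 was the lowest array in each group. The means were 9.58 ± 0.79 (SD, n = 3) and 9.88 ± 0.55 (SD, n = 3), a difference of 0.30 ± 0.42 (SE) with a 95% interval of -0.68 to 1.28 (limma unadjusted p = 0.494). A doubling of EPCAM mRNA is inside this interval and a halving is not. Over the alternative settings the EPCAM difference ran from -0.05 to 0.73, and in SP cells it was 0.23 ± 0.42 (SE). With replicate number as a block the SE in non-SP cells was 0.17, and the interval above is that of the fit without pairing. These values concern mRNA, and the protein on the cell surface was not measured here.

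Among 20 tested genes of the EpCAM partner and cleavage list, 0 passed the test, 10 estimates were higher and 10 lower, and the median was 0.01 beside 0.02 for all genes. The gamma-secretase subunits PSENEN and APH1A were the 2 members whose treated arrays all lay above the untreated ones, beside 3.00% of all genes. PSENEN had values of 10.96, 11.14 and 11.09 in untreated and 11.29, 11.19 and 11.51 in treated cells. Its difference was 0.26 ± 0.13 (SE; limma unadjusted p = 0.0864). In SP cells its difference was 0.04 ± 0.18 (SE). APH1A had values of 10.41, 10.56 and 10.55 against 10.56, 10.72 and 10.72, a difference of 0.16 ± 0.12 (SE). The lowest treated and the highest untreated array were barely apart for PSENEN and equal to 2 decimals for APH1A, whose 2 other probe sets gave -0.01 and 0.46. Nicastrin (NCSTN), the substrate-binding subunit, differed by 0.19 ± 0.17 (SE) and PSEN2 by -0.08 ± 0.13 (SE), both with overlapping arrays.

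The sheddases were close to level. ADAM10 read 12.57 ± 0.05 (SD, n = 3) untreated and 12.46 ± 0.05 (SD, n = 3) treated, and ADAM17 read 10.70 ± 0.13 (SD, n = 3) and 10.69 ± 0.01 (SD, n = 3). Their intervals were -0.37 to 0.15 and -0.29 to 0.27. BACE1, another membrane protease, differed by -0.09 ± 0.13 (SE). The claudins CLDN1 and CLDN7, tight-junction proteins of which CLDN7 binds EpCAM, differed by -0.16 ± 0.14 (SE) and -0.15 ± 0.13 (SE). A second CLDN1 probe set gave 0.10. CLDN3 and CLDN4 differed by 0.00 and -0.03. CD44, the hyaluronan receptor, read 12.93, 12.80 and 13.03 untreated and 12.85, 12.92 and 13.07 treated, a difference of 0.03 ± 0.13 (SE). CD44 values overlapped closely, and its 95% interval was -0.27 to 0.32.

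The intracellular partners of the cleaved fragment were also near zero. CTNNB1 (beta-catenin) differed by 0.02 ± 0.11 (SE), FHL2 by 0.00 ± 0.23 (SE) and LEF1 by 0.05 ± 0.24 (SE). The tetraspanin CD9 differed by 0.03 ± 0.15 (SE). A second tetraspanin, TSPAN8, could not be bounded by this fit without pairing. It read 6.75, 8.54 and 10.38 in untreated and 6.88, 9.40 and 10.39 in treated cells, with a difference of 0.33 ± 1.09 (SE). Replicate 1 was lowest and replicate 3 highest in both groups for TSPAN8, and the interval ran from -2.21 to 2.87.

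**Figure D1:**
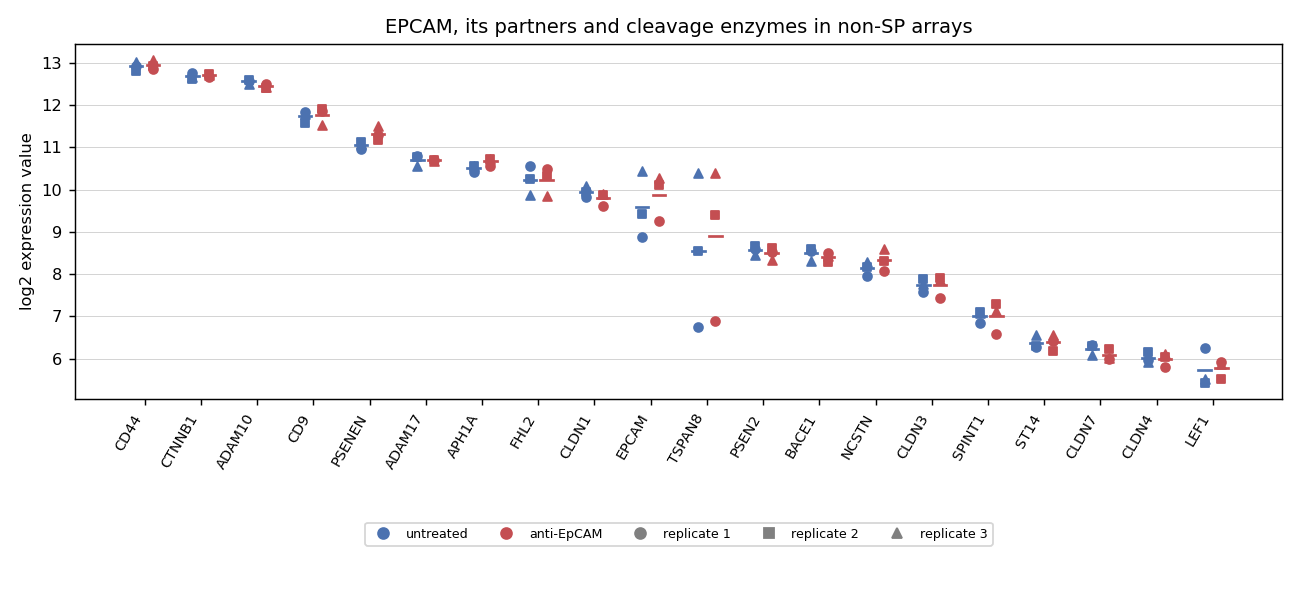
Log2 expression values (vertical axis) of EPCAM and the other 19 tested genes of the partner and cleavage list (horizontal axis) in each of the 6 non-SP arrays. Blue is untreated, red is anti-EpCAM, marker shape gives the replicate number and short bars are group means of 3 arrays; EPCAM and TSPAN8 spread widely within both groups, while ADAM10, CTNNB1 and CD44 stay within narrow ranges. Heights of different genes should not be compared, because probe sets differ in brightness.

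The reported target and marker genes gave differences within their replicate spread. MYC read 12.49, 12.52 and 12.31 untreated and 12.39, 12.64 and 12.21 treated, and its difference was -0.03 ± 0.15 (SE; 95% interval -0.38 to 0.32). CCNE1, the cyclin of S-phase entry, differed by -0.08 ± 0.20 (SE), and the proliferation marker MKI67 by -0.08 ± 0.14 (SE). The 3 other MKI67 probe sets gave -0.31, 0.10 and 0.38. CDKN1A, which encodes the cell cycle inhibitor p21, differed by 0.09 ± 0.20 (SE). CCND1, cyclin D1, also depended on the probe set. Its brighter probe set gave 0.07 ± 0.17 (SE), with 10.24, 9.94 and 10.52 untreated and 10.27, 10.25 and 10.39 treated. The second CCND1 probe set gave -0.86, with 10.57, 9.48 and 8.38 untreated and 9.35, 8.75 and 7.75 treated. The arrays of the second probe set overlapped, and replicate 3 was its lowest array in both groups. ABCG2, the efflux pump linked to the SP phenotype, read 11.27, 11.29 and 11.35 untreated and 11.12, 11.15 and 11.34 treated, a difference of -0.10 ± 0.12 (SE).

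The epithelial adhesion gene CDH1 (E-cadherin) read 10.87, 11.28 and 11.89 untreated and 11.05, 12.01 and 12.01 treated. The difference was 0.34 ± 0.34 (SE) with an interval of -0.45 to 1.13. With replicate number as a block its SE was 0.15 (limma unadjusted p = 0.0544, limma adjusted p = 0.877). The mesenchymal filament gene VIM differed by -0.13 ± 0.22 (SE), and its second probe set gave 0.39. Epithelial identity genes had 14 of 18 estimates above zero, 0 genes past the test and a median of 0.08, beside 56.8% of all genes above zero. Without both arrays of replicate 2 the count was 9 of 18 and the median 0.00, and without replicate 3 the median was 0.14. Mesenchymal genes had 8 of 17 above zero and a median of -0.01. KRT8 and KRT7, epithelial keratins, differed by 0.31 ± 0.21 (SE) and 0.20 ± 0.13 (SE), with 2 other KRT7 probe sets at -0.13 and 0.09, and TJP1, a tight-junction scaffold, by -0.17 ± 0.12 (SE). ACTA2, smooth muscle actin, had the smallest unadjusted limma p of the mesenchymal list, 0.0716, at a difference of 0.43 ± 0.21 (SE).

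The genes with the smallest p-values were mostly dim, and none passed the adjusted threshold. The smallest belonged to the long non-coding RNA LINC02064, with 5.25, 5.12 and 5.27 untreated and 5.89, 5.90 and 5.93 treated. The arrays of the 2 groups were well separated, with a difference of 0.70 ± 0.11 (SE; 95% interval 0.43 to 0.96; limma unadjusted p = 0.000355). PRKAR1B-AS1, an antisense RNA, read 5.13, 4.94 and 5.32 against 5.98, 5.98 and 5.69 (difference 0.75 ± 0.15, SE). TRPM2-AS, another antisense RNA, read 5.08, 5.58 and 4.89 against 6.03, 5.85 and 6.09 (difference 0.81 ± 0.19, SE). LMO1, a LIM-domain transcription regulator, read 5.13, 5.77 and 5.00 against 5.99, 6.14 and 6.17 (difference 0.80 ± 0.21, SE). All of these values lie close to the filter level of 5.39, at the lower end of what the array measured. The untreated mean of each of these genes was below that level, so each gene was tested only through its treated values.

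The other leading genes with higher values were TCL6, TCP10L, UNC5A, IGH, TNFRSF18, LONRF3 and KCNS1, at differences of 0.41 to 0.71. TNFRSF18 encodes GITR, a co-stimulatory receptor of the tumour necrosis factor receptor family. It read 5.63, 5.60 and 5.72 untreated and 6.10, 6.13 and 6.19 treated (difference 0.49 ± 0.11, SE). Its second probe set read 5.75, 5.44 and 5.47 against 5.67, 5.50 and 5.48, a difference of -0.01. UNC5A, a netrin receptor, differed by 0.71 ± 0.21 (SE). The untreated means of UNC5A and TCP10L, 5.14 and 5.28, were below the filter level, so both passed it only through their treated values. The immunoglobulin heavy locus probe set (IGH) differed by 0.52 ± 0.13 (SE), and 2 further IGH probe sets gave -0.36 and -0.41. KCNS1, a modifier subunit of potassium channels, read 5.92, 5.83 and 5.81 against 6.21, 6.24 and 6.34.

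Among genes with lower values the smallest p belonged to LOC105379426, an uncharacterised locus, with 7.49, 7.24 and 7.29 untreated and 6.72, 6.37 and 6.45 treated. The groups were separate, at a difference of -0.83 ± 0.14 (SE; 95% interval -1.16 to -0.49; limma unadjusted p = 0.000564). ATP10B, a phospholipid-transporting ATPase, read 6.45, 6.20 and 6.35 against 5.77, 5.76 and 5.84 (difference -0.55 ± 0.12, SE). CLDN18, a claudin of lung and stomach epithelium, read 5.70, 5.53 and 5.57 against 5.21, 5.14 and 5.19 (difference -0.42 ± 0.11, SE). Its treated mean of 5.18 was below the filter level, so CLDN18 was tested only through its untreated values. FAM161B was one of the brighter leading genes, with 9.78, 9.69 and 9.77 against 9.24, 9.45 and 9.13 (difference -0.47 ± 0.13, SE).

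Several of the brighter leading genes were not matched by their other probe sets. SECISBP2, which encodes the protein that binds the selenocysteine insertion element, read 9.58, 9.02 and 8.38 untreated and 8.25, 8.05 and 7.21 treated (difference -1.16 ± 0.36, SE). Its second probe set read 8.33, 8.01 and 8.42 against 8.14, 8.21 and 8.39, a difference of -0.01. ASRGL1, an asparaginase, differed by -0.53 ± 0.13 (SE) on 1 probe set and by -0.01 on the other. DCAF5, a substrate receptor of a ubiquitin ligase, differed by -0.66 ± 0.17 (SE), while its 3 further probe sets gave -0.05, 0.14 and 0.21. For BRD2, a bromodomain reader of acetylated histones, 2 probe sets gave -0.79 and -0.62 and the remaining one gave 0.21. Among the 10 genes of smallest p in each direction, 2 with higher and 4 with lower values had another probe set above the filter. In 0 of the 2 and in 1 of the 4 did all the other probe sets have the sign of the leading one. The groups of ZBED6, a zinc finger transcription factor, and of SRD5A2, a steroid reductase, did not overlap either, at -0.97 ± 0.34 (SE) and -0.68 ± 0.20 (SE). ZBED6 had a treated mean of 5.03 and passed the filter only through its untreated values.

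**Figure D2:**
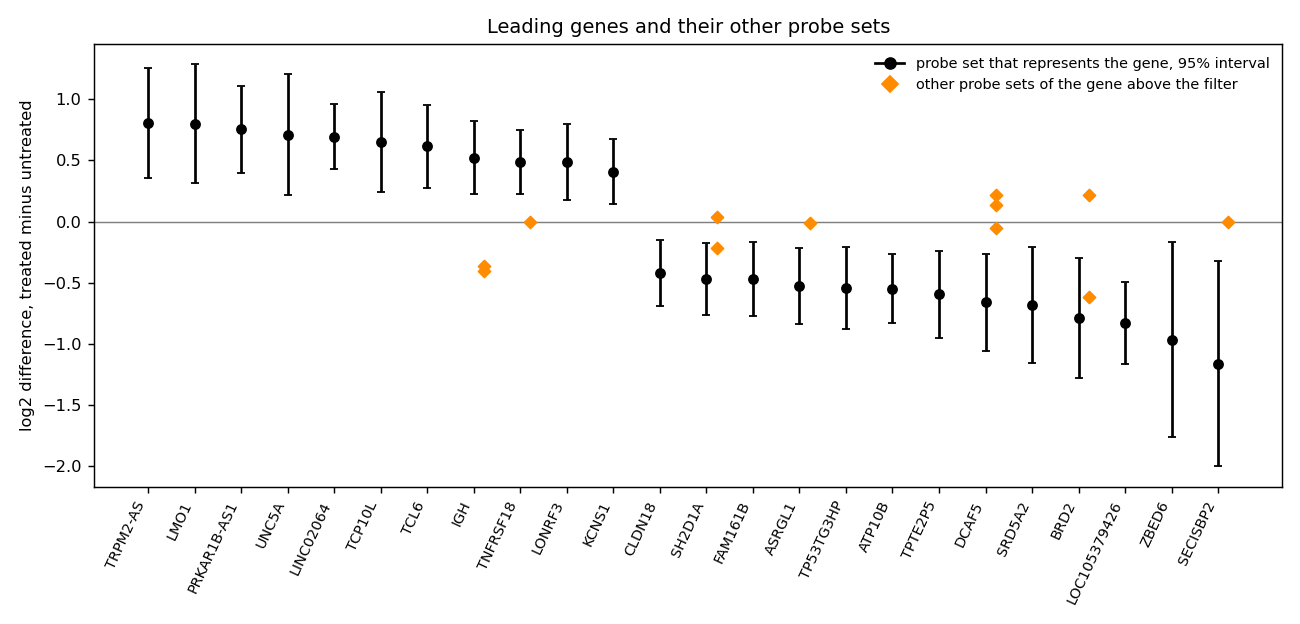
Log2 difference, treated minus untreated (vertical axis), for the 24 leading genes (horizontal axis). Black points are the probe set that represents the gene with its 95% interval from limma over 3 and 3 arrays, and orange diamonds are the gene's other probe sets above the filter. The second probe sets of TNFRSF18, ASRGL1 and SECISBP2 lie at -0.01, and those of IGH lie at -0.36 and -0.41, on the other side of zero from its black point.

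Genes of 39 lists covering adhesion, signalling, stress, metabolism and cell types were read against the same background. Of 761 distinct members tested, 0 passed the adjusted threshold, and 3 higher and 2 lower had an unadjusted limma p under 0.05. That is 0.657% of members, beside 1.65% of all genes. All treated arrays lay above all untreated arrays for 14 members (1.84%, beside 3.00% of all genes) and below for 8 (1.05%, beside 1.74%). List medians ran from -0.06 to 0.22, and 37 of 39 lay within 0.1 of zero.

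Among inflammatory and immune genes 0 members passed the test. ICAM1, a leukocyte adhesion receptor, read 6.05, 6.07 and 5.90 untreated and 6.40, 6.38 and 6.25 treated. The groups did not overlap, at a difference of 0.34 ± 0.12 (SE; limma unadjusted p = 0.0246). The second ICAM1 probe set gave 0.01, and in SP cells the ICAM1 difference was 0.09 ± 0.14 (SE). The chemokine gene CCL2 differed by 0.36 ± 0.19 (SE) and TNFAIP3, an inhibitor of NF-kB signalling, by -0.33 ± 0.16 (SE). A second TNFAIP3 probe set gave -0.24. The NF-kB and inflammatory list as a whole had 11 of 20 estimates above zero and a median of 0.04. Among interferon response and antigen presentation genes 16 of 27 were above zero, with a median of 0.04. IFIT2 and IFI27, interferon-induced genes, had the largest lower values among the 3 named from that list, -0.42 ± 0.20 (SE) and -0.46 ± 0.24 (SE). A second IFIT2 probe set gave -0.02. The treated arrays of IFI27 read 4.68, 5.53 and 5.51. Their mean of 5.24 was below the filter level, so IFI27 was tested only through its untreated values.

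Complement genes and membrane complement regulators had 13 of 13 estimates above zero, beside 56.8% of all genes, a median of 0.10 and 0 genes past the test. C3, the central complement component, read 7.60, 8.09 and 8.61 untreated and 7.67, 8.70 and 8.90 treated (difference 0.32 ± 0.37, SE). The regulators CD46, CD55 and CD59, which protect cells from complement, differed by 0.09, 0.03 and 0.08 with overlapping arrays. Secreted plasma protein genes had 14 of 15 estimates above zero and the highest list median, 0.22. SERPINA3, an acute-phase protease inhibitor, had the largest estimate at 0.47 ± 0.45 (SE), and TF (transferrin) was the 1 member below zero at -0.28 ± 0.33 (SE). Members of both lists move together between arrays, so their shared sign is not a count of independent genes. The mean of the plasma protein list, relative to its 6-array mean, was -0.78, -0.12 and 0.61 in untreated arrays 1, 2 and 3 and -0.74, 0.32 and 0.71 in treated arrays 1, 2 and 3. The complement list gave -0.46, -0.14 and 0.37 against -0.45, 0.24 and 0.44. In both lists the arrays of replicate 1 were nearly level between groups and replicate 2 differed most. Without both arrays of replicate 1, 2 or 3 the plasma protein median was 0.26, 0.11 or 0.19, and the complement median was 0.21, 0.07 or 0.15. Without replicate 2 the estimate was above zero for 10 of 15 plasma protein genes and 9 of 13 complement genes.

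Signalling and growth lists were close to the all-gene median. Immediate-early genes, the first transcriptional response to growth signals, had a median of 0.03 with 15 of 24 estimates above zero. Their leading gene FOSL1, an AP-1 subunit, read 9.36, 9.18 and 9.40 untreated and 9.51, 9.50 and 9.78 treated (difference 0.28 ± 0.14, SE). ERK feedback genes had a median of 0.07 and EGFR ligands and ERBB receptors a median of 0.01. EGFR itself differed by -0.27 ± 0.36 (SE), with replicate 3 lowest in both groups, and its 8 other probe sets ran from -0.47 to 0.61. G1/S and DNA replication genes had the lowest median of the lists, -0.06, with 14 of 35 estimates above zero, and 0.03 with 19 of 35 when both replicate 2 arrays were left out. G2/M genes had 0.00 with 18 of 34, and 26 of 34 without replicate 2. For all 35 G1/S genes and all 34 G2/M genes the 95% interval lay within 1 log2 unit of zero. Wnt targets and antagonists, Notch genes and YAP/TAZ targets had medians of 0.05, 0.04 and 0.01. In the TGF-beta list TGFB1, the ligand gene, read 7.70, 8.06 and 7.95 untreated and 8.25, 8.27 and 8.41 treated. Its groups did not overlap (difference 0.41 ± 0.14, SE; limma unadjusted p = 0.0193), its second probe set gave 0.15, and the list median was 0.04.

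Housekeeping and stress lists also lay near zero. Cytosolic ribosomal protein genes differed by a median of -0.01 over 43 genes, splicing factors by -0.02 over 35, proteasome subunits by -0.02 over 27 and respiratory complex genes by 0.02 over 42. Medians of the p53, NRF2, heat shock, unfolded protein and integrated stress response lists lay between -0.03 and 0.03. DDR2, a collagen receptor kinase listed with the integrated stress response genes, read 5.48, 5.55 and 5.41 untreated and 5.85, 5.87 and 5.79 treated (difference 0.36 ± 0.11, SE; limma unadjusted p = 0.0141). SESN2, a stress-induced regulator of mTORC1, read 8.80, 8.43 and 8.33 against 8.11, 8.18 and 8.07 (difference -0.40 ± 0.15, SE; limma unadjusted p = 0.0301). HSP90B1, the endoplasmic reticulum chaperone, had a large but unbounded estimate of -0.87 ± 0.64 (SE). Treated replicate 3 read 8.0 against 10.02 to 10.64 in the other treated arrays, and a second HSP90B1 probe set gave -0.78. Death receptor genes of the BCL2 and death receptor list included TNFRSF10A at -0.56 ± 0.28 (SE), with 2 other probe sets at -0.36 and 0.05, and that list's median was 0.03. Among alveolar type II genes SFTPB, surfactant protein B, read 7.76, 7.56 and 7.80 untreated and 7.24, 7.44 and 7.23 treated (difference -0.40 ± 0.13, SE; limma unadjusted p = 0.0158). The probe sets of SFTPB disagreed, since 2 others gave -0.17 and 0.12. Of the 10 tested alveolar type II members 8 had estimates above zero. Drug efflux transporters and stem cell markers, the groups most often examined in side population work, both had medians of 0.01.

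**Figure D3:**
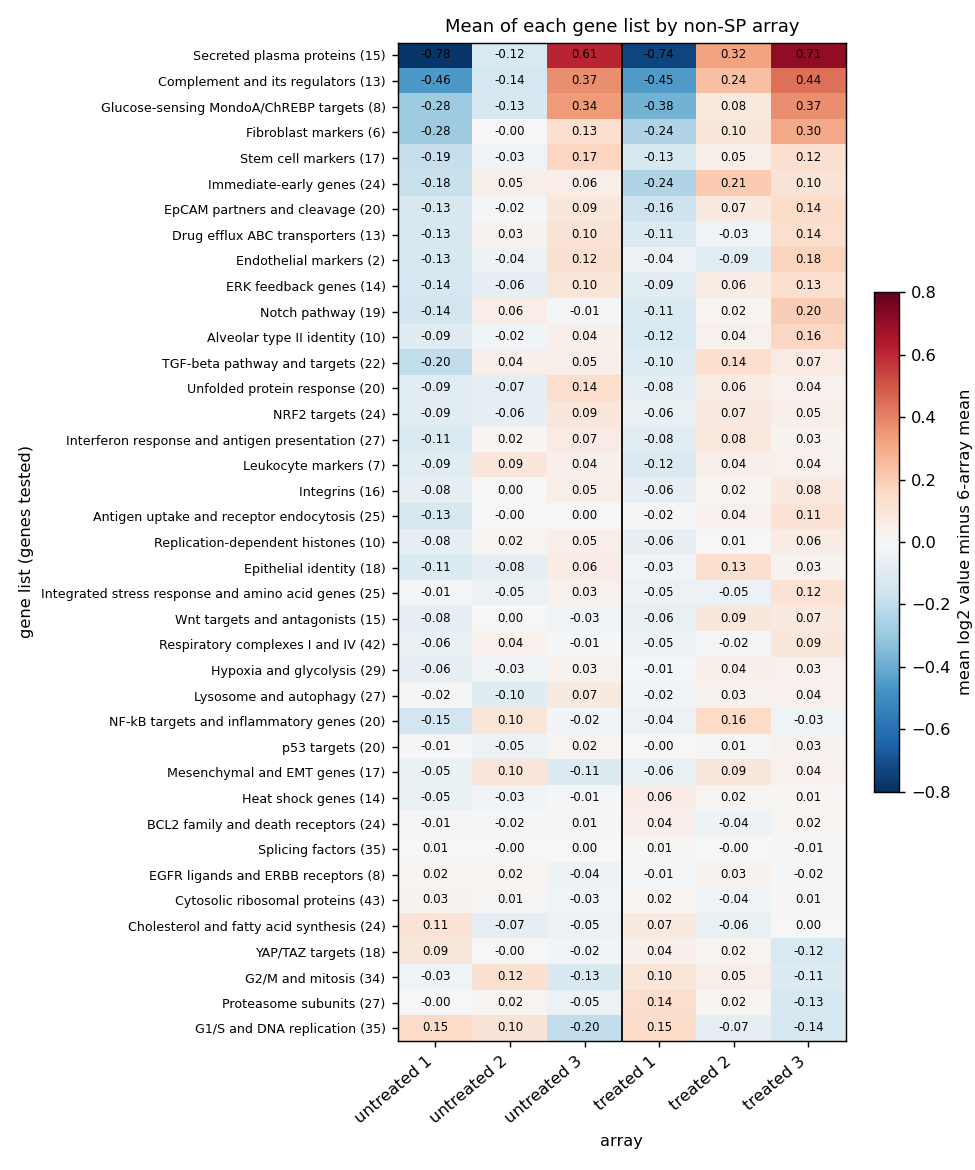
Mean log2 value of each gene list (rows, with the number of genes tested) in each non-SP array (columns), relative to the list's mean over the 6 arrays. The colour scale runs from -0.8 (blue) to 0.8 (red), numbers are the plotted values, and the black line separates untreated from treated; plasma protein genes range from -0.78 to 0.61 in untreated and from -0.74 to 0.71 in treated arrays, and splicing factor genes stay between -0.01 and 0.01.

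Differences between replicates were larger than those between treated and untreated cells. Of the total sum of squares over all genes and the 6 arrays, replicate number (2 degrees of freedom) took 68.8%, treatment (1 degree of freedom) 11% and the rest 20.1%. The first principal component held 64.3% of the variance, with scores of -32.9, -7.7 and 24.5 for untreated arrays 1, 2 and 3 and of -26.7, 12.3 and 30.6 for treated arrays 1, 2 and 3. Replicate 1 of each group was at the low end and replicate 3 of each group at the high end. Replicates 3 and 1 differed by more than 1 log2 unit for 702 genes in untreated and 709 in treated cells. Of these, 418 did so with the same sign in both groups and 5 with opposite signs. Among the 418, 318 were higher and 100 lower in replicate 3. The same sign and size were found in SP cells for 272 of the 418 in untreated and 321 in treated cells. The labels do not say what replicates of one number share across groups, and replicates 2 of the 2 groups did not deviate together.

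**Figure D4:**
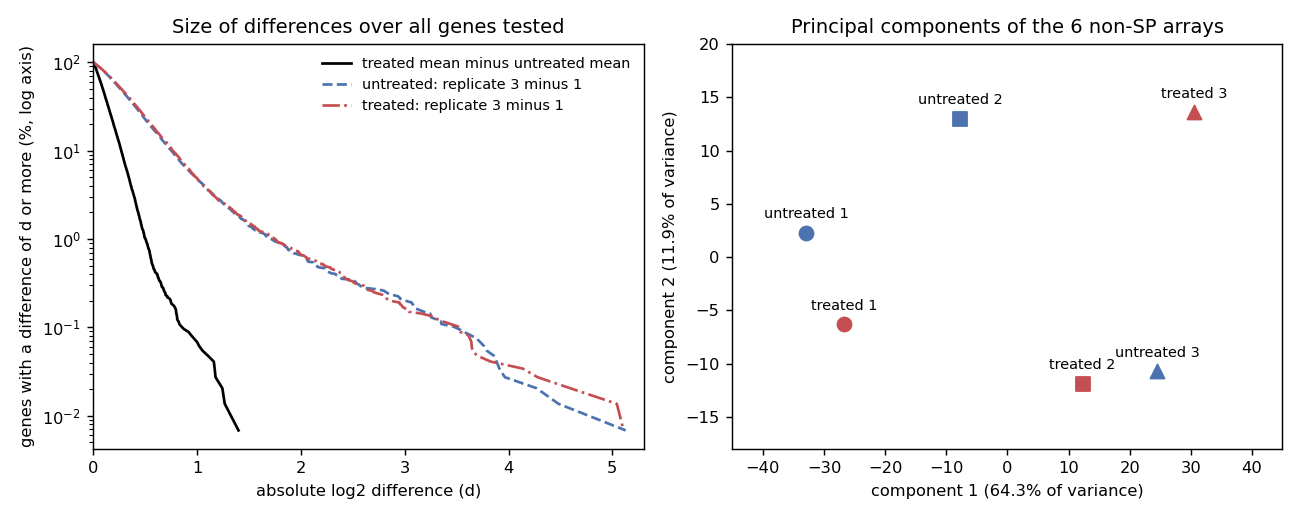
Left: percentage of the 14629 genes (vertical, log axis) whose absolute log2 difference is at least the value on the horizontal axis, for the difference of group means and for replicate 3 minus replicate 1 within each group; the first is a difference of 3-array means and the others are differences of single arrays, which vary more by construction. Right: scores of the 6 arrays on the first and second principal components (arbitrary units), with 64.3% and 11.9% of the variance; blue is untreated, red is treated, and untreated 3 lies next to treated 2.

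NTS, which encodes the secreted peptide neurotensin, had the largest gap between replicates 3 and 1 in untreated cells and, after OR51E1, the next largest in treated cells among the genes with gaps in both groups. It read 8.12, 11.91 and 13.25 in untreated and 8.20, 12.28 and 13.25 in treated arrays 1, 2 and 3, which is a 35.0-fold and a 33.0-fold gap between replicates 3 and 1. The antibody difference was 0.15 ± 1.60 (SE), and in SP cells the arrays read 8.61, 11.76 and 13.26 untreated and 8.42, 12.06 and 13.26 treated. These genes were chosen for their spread between replicates, so the spread is a description. OR51E1 and OR51E2, olfactory-type G protein-coupled receptors, showed gaps of 22.3-fold and 19.3-fold in untreated and 34.5-fold and 19.4-fold in treated cells. ID4, an inhibitor of helix-loop-helix factors, read 7.54, 9.20 and 11.42 against 7.73, 10.49 and 11.56. The alcohol dehydrogenase genes ADH1C and ADH6 had gaps of 15.6-fold and 11.9-fold in untreated cells.

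Fibrinogen genes were part of the same pattern. FGB, the fibrinogen beta chain, read 8.59, 10.72 and 12.11 untreated and 8.47, 11.57 and 12.16 treated, with an antibody difference of 0.26 ± 1.13 (SE). The alpha and gamma chain genes FGA and FGG had antibody differences of 0.34 ± 0.93 (SE) and 0.36 ± 1.13 (SE). In the opposite direction GREM1, a secreted antagonist of bone morphogenetic proteins, read 8.43, 6.78 and 5.50 untreated and 8.73, 6.57 and 5.08 treated. KCNMA1, a calcium-activated potassium channel, read 9.82, 8.96 and 6.75 against 9.95, 7.69 and 7.14, and the actin nucleator gene FMN2 read 7.46, 7.15 and 5.55 against 7.85, 6.46 and 5.79. For these genes a replicate 3 array was low in both groups, and the antibody differences were -0.11 ± 1.00 (SE) for GREM1, -0.25 ± 0.92 (SE) for KCNMA1 and -0.02 ± 0.63 (SE) for FMN2.

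**Figure D5:**
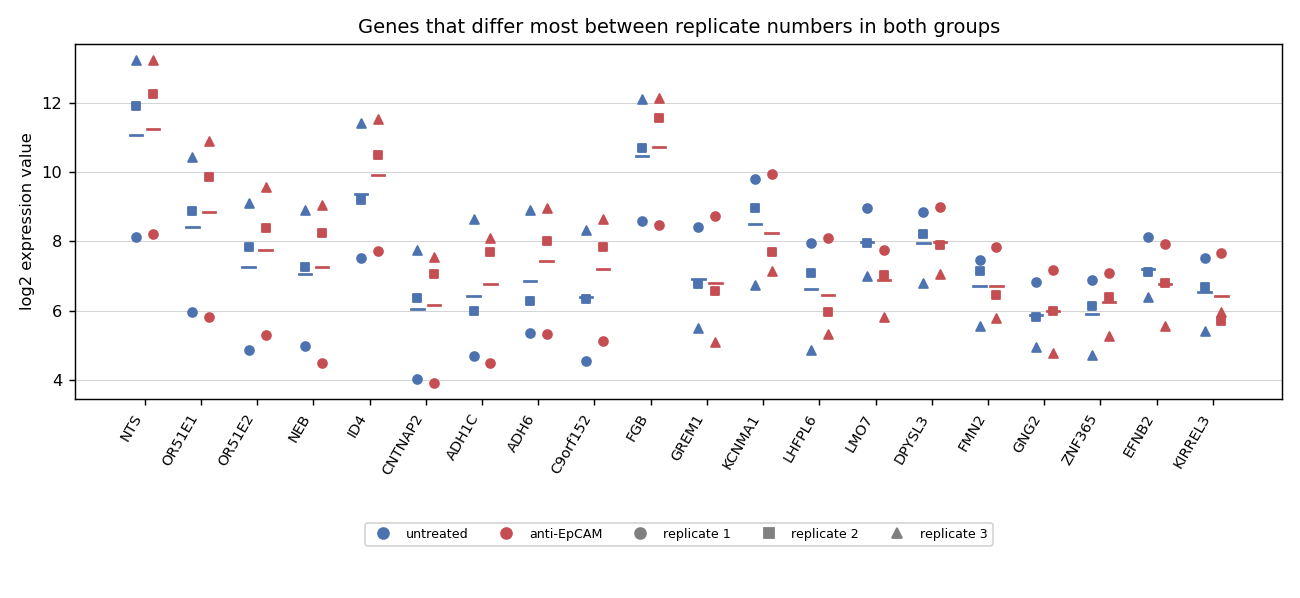
Log2 expression values (vertical axis) of 20 genes with the largest gaps of one sign between replicates 3 and 1 in both groups (horizontal axis), 10 higher and 10 lower in replicate 3. Blue is untreated, red is anti-EpCAM, marker shape gives the replicate number and short bars are means of 3 arrays; NTS spans 8.12 to 13.25, and the means of the 2 groups lie closer together for each gene than replicates 1 and 3 of either group.

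The 250 bases before the transcription start of 3 of these genes are shown to set the promoters of genes at either end of the replicate pattern side by side: NTS and FGB from the genes high in replicate 3, and GREM1 from those low in it. They are RefSeq sequences on GRCh38.p14, all on the plus strand, at chr12:85874045-85874294, chr4:154562730-154562979 and chr15:32717754-32718003. FGB and GREM1 have 2 starts each in the table, and the most upstream one was taken. Capitals mark matches on either strand to TATATA, which resembles the core promoter box that binds TBP, and to GGGCGG, the motif of the GC box.
NTS: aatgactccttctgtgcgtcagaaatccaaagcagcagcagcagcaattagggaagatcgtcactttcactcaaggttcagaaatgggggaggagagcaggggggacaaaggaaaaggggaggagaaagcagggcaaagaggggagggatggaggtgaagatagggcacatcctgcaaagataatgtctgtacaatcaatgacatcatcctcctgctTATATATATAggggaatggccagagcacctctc
FGB: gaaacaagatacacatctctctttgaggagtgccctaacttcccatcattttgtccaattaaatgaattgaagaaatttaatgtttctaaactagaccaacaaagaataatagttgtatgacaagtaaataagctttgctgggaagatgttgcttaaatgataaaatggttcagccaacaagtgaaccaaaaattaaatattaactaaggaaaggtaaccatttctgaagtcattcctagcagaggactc
GREM1: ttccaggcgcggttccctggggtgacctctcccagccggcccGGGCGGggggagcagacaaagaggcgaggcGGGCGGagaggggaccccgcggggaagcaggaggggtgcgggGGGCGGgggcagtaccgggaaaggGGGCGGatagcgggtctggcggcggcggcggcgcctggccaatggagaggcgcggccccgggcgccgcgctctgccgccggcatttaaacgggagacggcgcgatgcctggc
The NTS window held 3 overlapping matches to TATATA and 0 to GGGCGG, the FGB window held neither motif, and the GREM1 window held 4 matches to GGGCGG and 0 to TATATA. Of 35116 RefSeq windows of this length 3.73% held TATATA and 42.6% held GGGCGG. A match describes letters in the window, and no binding was measured here.

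The antibody difference was set beside that of the SP arrays, which share no array with it but show the same replicate pattern. In SP cells 0 genes passed the adjusted limma threshold and 189 had an unadjusted p under 0.05. The difference between the antibody effects in SP and non-SP cells was tested after matching arrays by replicate number within each treatment. In that test 0 genes passed (smallest limma adjusted p 1.00), with 238 at an unadjusted p under 0.05. Whether arrays matched in this way come from the same sort is not stated in the labels. LINC02064 differed by 0.59 ± 0.13 (SE) in SP beside 0.70 ± 0.11 (SE) in non-SP cells, and TRPM2-AS by 0.95 ± 0.22 (SE) beside 0.81 ± 0.19 (SE). Among lower genes TPTE2P5, a pseudogene, gave -0.66 ± 0.16 (SE) beside -0.59 ± 0.15 (SE), and LOC105379426 gave -0.42 ± 0.22 (SE) beside -0.83 ± 0.14 (SE). The treated non-SP mean of TPTE2P5, 5.12, was below the filter level, so its untreated values alone carried it past the filter. DDR2 gave 0.51 ± 0.14 (SE) in SP cells and SFTPB gave -0.36 ± 0.13 (SE), close to their non-SP values of 0.36 and -0.40. Other leading genes had smaller differences in SP cells. They were chosen for their non-SP values, so smaller differences in other arrays can come from the choice alone. CLDN18 gave -0.13 ± 0.14 (SE) beside -0.42 in non-SP cells, and ASRGL1 gave -0.13 ± 0.22 (SE) beside -0.53. BRD2 gave -0.24 ± 0.37 (SE) beside -0.79, DCAF5 -0.30 ± 0.22 (SE) beside -0.66 and LONRF3 0.19 ± 0.19 (SE) beside 0.49. SESN2 was 0.05 ± 0.18 (SE) in SP cells against -0.40 in non-SP cells, and the difference between the effects was 0.45 ± 0.17 (SE; limma unadjusted p = 0.0242, not passing after adjustment over all genes). A second SESN2 probe set was 0.11 in non-SP cells.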

How the data were processed

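The deposited values are log2 expression values per probe set of an Affymetrix array, made by the authors with RMA, per the submitters' processing notes. RMA's version and which arrays were processed together are not given in the sources used here. Per the labels, 200 ng of total RNA gave 10 µg of labelled cRNA. The 6 arrays were quantile-normalised together. Of 54613 non-control probe sets 41091 had 1 gene symbol in the platform annotation. Those with a mean above the 40th percentile (5.39) were kept, the brightest per gene. Groups were compared with limma 3.58.1 in R 4.3.3 (two-sided, Benjamini-Hochberg over 14629 genes); the fit was tested on simulated data. p-values measure the spread between 3 arrays a group, and the number of arrays limits the precision. An exact permutation test of 3 against 3 cannot go below 0.1.

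Named genes were, per direction, the 10 of smallest p and the 5 of largest difference whose arrays did not overlap, up to 3 of smallest p per list, and 11 fixed genes that could be tested; genes that differ between replicate numbers were chosen after their values were seen. The members and lists were chosen with earlier results of these data known. Deviations of same-numbered treated and untreated arrays correlated at 0.74, -0.12 and 0.60, and the labels do not say whether such arrays belong together. The main fit did not take treated and untreated arrays as pairs. If the numbers are pairs, its SEs and intervals can be too wide. For EPCAM the SE was 0.42, against 0.17 with the number as a block, and 0 genes passed in either fit. The comparison of SP with non-SP effects did match arrays by number. Sequences are from RefSeq. Alternatives covered normalization, filters, probe set choice, model and left-out replicates.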

Additional observations from a re-analysis of the deposited data

How the results depend on the processing

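The count of genes past the adjusted threshold was 0 under all 20 alternatives for the antibody difference in non-SP cells and under all those run for the difference between SP and non-SP effects. Counts at an unadjusted limma p under 0.05 moved more: 241 as reported, 60 without quantile normalization, 150 with median centring, 455 of 19775 genes without the filter, 106 of 11259 genes with the 60th percentile, 167 with trend and robust settings and 591 with the first principal component as a covariate, chosen after seeing the data (smallest adjusted p 0.646). Higher values were 58.5% of these genes as reported, 76.7% without quantile normalization, where the median of all genes was 0.10, 66.7% after adjusting for the GAPDH control ratio and 49.1% with the stricter filter. With the replicate number as a block 0 genes passed (832 at p under 0.05, smallest adjusted p 0.105, SECISBP2, LMO7, ZNF566 and JPX), and the block value of EPCAM was 0.30 ± 0.17 (SE). The share of higher values was 66.9% with the block. Leaving out 1 array gave 158 (without untreated replicate 1) to 656 genes (without untreated replicate 3), with 485 without treated replicate 1. Leaving out both arrays of replicate 2 gave 112 and of replicate 3 gave 541. The causes were not tested. Of 147 named genes 30 took the other sign under at least 1 alternative, and 1 of the 24 leading genes did, IGH at -0.08 with the mean of its probe sets. The stricter filter left 17 of the 24 untested. Low signal limits the dim genes: the median SE was 0.18 in the dimmest and 0.14 in the brightest of 4 equal groups of genes.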
